A study of Mus musculus with 8 samples.

Results

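Heme synthesis was examined in leukaemic cells through 9 transcripts, those of 8 enzymes of the pathway (Alas1, Alas2, Alad, Uros, Urod, Cpox, Ppox and Fech) and of Slc25a38, the mitochondrial carrier that brings in glycine. The members were taken by symbol and not by a measured value, though with earlier results of these data known. All 9 of the 9 were found among the 54838 genes of the table and passed the filter on low counts, which 10911 genes passed. The step between Alad and Uros was not analysed here. The cells were acute myeloid leukaemia (AML) cells of C57BL/6 background that carry the RUNX1-RUNX1T1 fusion, grown in Ptprca recipient mice. Fusion and transplant were common to both groups, as was the sub-lethal irradiation of recipients that the labels give and that the methods name for other leukaemia models only. The methods describe recipients seeded with frozen cells from a moribund mouse, so that the samples may share 1 donor leukaemia. Sorted Kit-positive leukaemic cells were used. The Vehicle group (4 samples) and the AG636 group (4 samples) differed in the treatment, AG636 being an oral inhibitor of the pyrimidine synthesis enzyme DHODH given by gavage at 100 mg/kg b.i.d., with samples taken after 1 day according to the figure legend. The age of the mice was not given. The labels do not say whether a sample came from bone marrow or spleen or whether each is a separate mouse, and the legend counts fewer mice per group than the 4 samples here, so that p-values measure the spread between samples only.

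Heme is an iron-holding ring made in both the mitochondrion and the cytosol. Alas1 (in most cells) or Alas2 (in red cell precursors) joins glycine and succinyl-CoA in the mitochondrial matrix, Alad, Uros and Urod build the ring in the cytosol, and Cpox, Ppox and Fech finish it in the mitochondrion, where Fech inserts the iron. The first step is the usual point of control, and red cell precursors run the pathway at a far higher rate than other cells to supply hemoglobin, while leukaemic and other dividing cells need heme for cytochromes and other enzymes. DHODH, the target of AG636, is likewise a mitochondrial enzyme.

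Libraries held 6120030 to 7162036 counts. They were made with a kit that reads the 3′ end of each transcript, so a level in CPM (counts relative to library size, scaled here by TMM factors) stands for a number of transcripts with little effect of length, and levels of different genes are compared on that scale. The cells carried the sort marker Kit at 153 to 252 CPM over both groups, whereas Itgam, which codes for the CD11b antigen of mature myeloid cells, had at most 4 counts in any library, and Mpo, the peroxidase of granulocyte precursors, lay at 0.5 to 4.8 CPM. Erythroid genes were abundant: the transcription factor Gata1 lay at 196 to 266 CPM, Car1 (carbonic anhydrase of red cells) at 2427 to 4144 CPM and the alpha-globin gene Hba-a1 at 589 to 1814 CPM. Ms4a2, a mast cell and basophil marker, was abundant as well (540 to 1074 CPM over both groups), while the other listed markers of those cells were lower. In bulk RNA, fewer cells of a type and less RNA per cell cannot be told apart. Vehicle samples 1 to 3 were closer to each other (chi-square divided by degrees of freedom, 3.69 to 4.27 for a pair) than to Vehicle sample 4 (8.52 to 12), and pairs of AG636 samples lay farthest apart (12.9 to 22.6).

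The regulatory sequences of the members are shown first, because an element in 1 of them tells apart the 2 forms of the first enzyme. In the 5′ untranslated regions of the GENCODE M21 annotation (GRCm38), a script looked for the iron-responsive element, a short hairpin with the loop CAGTG followed by A, C or T, a stem of 5 paired bases and a C before it, through which iron regulatory proteins hold back translation. The element was found in 1 of the 9 members, Alas2, and in 23 of 20591 protein-coding genes with such a region (0.112%). It lay at X:150547459-150547485 (+ strand) in Alas2 and is printed with that of the iron store gene Fth1 (19:9982733-9982759, + strand), with the loop in capitals.
Alas2: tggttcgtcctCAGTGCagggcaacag
Fth1: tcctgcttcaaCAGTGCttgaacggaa
The element acts on the making of protein, which a count of transcripts does not measure.

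With Fech left out, promoter windows (250 bases before to 50 after a start site, RefSeq, GRCm38.p6) were taken for the other 8 of the 9 members, 11 windows in all. They were searched on both strands for GATAA (GATA factors), TGAGTCA (NF-E2 and Bach1), CACGTG (E-box), TGCGCA (Nrf1 half-site), CACACCC (Klf1) and CCATNTT (Yy1). None of these motifs is contained in another. GATAA was present in 3 of the 11 windows (27.3%, in Alas2, Uros and Cpox), against 25.4% of all 32851 windows. CACGTG was present in 4 of the 11 (36.4%), those of 3 members (Alad in 2 overlapping windows, Uros and Urod), against 7.15% of all. CCATNTT was present in 2 of the 11 (18.2%, in Urod and Ppox), against 16.1% of all. TGCGCA and CACACCC were present in the Cpox window only (9.09% of the 11), against 7.76% and 7.95% of all windows, and TGAGTCA in none, against 5.2%. The windows of Alas1 and Slc25a38 held none of these letters. A match is a description of the sequence and not evidence of binding. The 250 bases upstream of the start are given for the erythroid enzyme Alas2 (X:150547167-150547416, + strand), for Cpox, the most abundant member (16:58669958-58670207, + strand), for Urod (4:116994414-116994663, - strand), which held an E-box beside a Yy1 match, and for Slc25a38, the member called below (9:120110132-120110381, + strand). Capitals mark the matches.
Alas2: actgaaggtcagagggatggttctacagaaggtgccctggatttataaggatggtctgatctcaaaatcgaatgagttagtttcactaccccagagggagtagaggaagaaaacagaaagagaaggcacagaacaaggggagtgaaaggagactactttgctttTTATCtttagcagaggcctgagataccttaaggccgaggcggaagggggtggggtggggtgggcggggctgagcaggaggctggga
Cpox: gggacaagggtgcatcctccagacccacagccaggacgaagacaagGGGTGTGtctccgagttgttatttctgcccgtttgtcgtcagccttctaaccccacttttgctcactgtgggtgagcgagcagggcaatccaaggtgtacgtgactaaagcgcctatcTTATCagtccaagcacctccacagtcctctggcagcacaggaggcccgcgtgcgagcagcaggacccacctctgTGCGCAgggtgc
Urod: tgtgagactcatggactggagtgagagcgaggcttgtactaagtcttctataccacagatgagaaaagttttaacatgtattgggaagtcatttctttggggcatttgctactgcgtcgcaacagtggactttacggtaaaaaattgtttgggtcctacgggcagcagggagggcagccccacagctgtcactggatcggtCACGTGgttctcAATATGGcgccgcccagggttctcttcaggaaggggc
Slc25a38: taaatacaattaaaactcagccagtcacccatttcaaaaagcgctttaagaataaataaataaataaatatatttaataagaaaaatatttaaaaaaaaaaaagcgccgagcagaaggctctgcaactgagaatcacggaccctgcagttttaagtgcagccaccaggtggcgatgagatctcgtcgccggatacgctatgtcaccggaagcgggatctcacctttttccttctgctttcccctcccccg

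To place the members against each other, their levels were ordered over all 8 libraries. Cpox (coproporphyrinogen oxidase) led with a mean of 878 CPM, above 99% of tested genes, followed by Fech (ferrochelatase, 240 CPM), Urod (uroporphyrinogen decarboxylase, 139 CPM) and Alad (aminolevulinate dehydratase, 94.1 CPM). Ppox (protoporphyrinogen oxidase, 34.4 CPM) and Slc25a38 (34.05 CPM) came next, and Uros (uroporphyrinogen synthase, 13.4 CPM), Alas1 (11.0 CPM) and Alas2 (10.9 CPM) were lowest. Cpox lay above Fech, Fech above Urod and Alad above Ppox in every library with ranges that did not overlap. Urod exceeded Alad in 8 of 8 libraries although their ranges overlapped, while Ppox exceeded Slc25a38 in 5 of 8, Uros exceeded Alas1 in 7 of 8 and Alas1 exceeded Alas2 in 4 of 8, so these last 3 neighbours did not differ beyond their spread. Both genes of the first step were thus among the 3 lowest members, near the 26.4th percentile of tested genes.

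Positions are those of the table (GRCm38). Slc25a38 lies at 9:120110374-120124504 (+ strand), Alas1 at 9:106233455-106248654 (- strand), Alas2 at X:150547375-150570638 (+ strand), Alad at 4:62509169-62519918 (- strand), Uros at 7:133686243-133710072 (- strand), Urod at 4:116989965-116994413 (- strand), Cpox at 16:58670292-58717636 (+ strand), Ppox at 1:171275990-171281186 (- strand) and Fech at 18:64456550-64489066 (- strand). The 3′-terminal 311 exon bases of Alas2 are also exon of Apex2 on the other strand, and 791 bases near the 3′ end of Ppox are also exon of B4galt3 on the other strand. Whether strand was used in counting was not stated, so that the levels of Alas2 and Ppox are uncertain. Apex2 averaged 8.64 CPM in Vehicle and 5.8 CPM in AG636 (a log2 difference of −0.56, with limma's adjusted p = 0.0822), and B4galt3 29.9 and 27.9 CPM (−0.09, adjusted p = 0.652).

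To determine whether DHODH inhibition altered the pathway, the 2 groups were set against each other with limma-voom over all tested genes. Of the 9 members, 1 was called higher (Slc25a38) and 0 were called lower at an adjusted p-value under 0.05, while 5.47% of all tested genes were called higher, 8.49% lower and 14.0% in either direction. Under edgeR and DESeq2, 0 members were called lower as well. The groups overlapped in all 9 members, whereas they did not overlap in 22.2% of tested genes (9.35% higher and 12.9% lower in AG636). The median log2 fold change was 0.12 over the members and −0.0056 over all tested genes, with 6 members above 0 and 3 below.

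**Figure D1:**
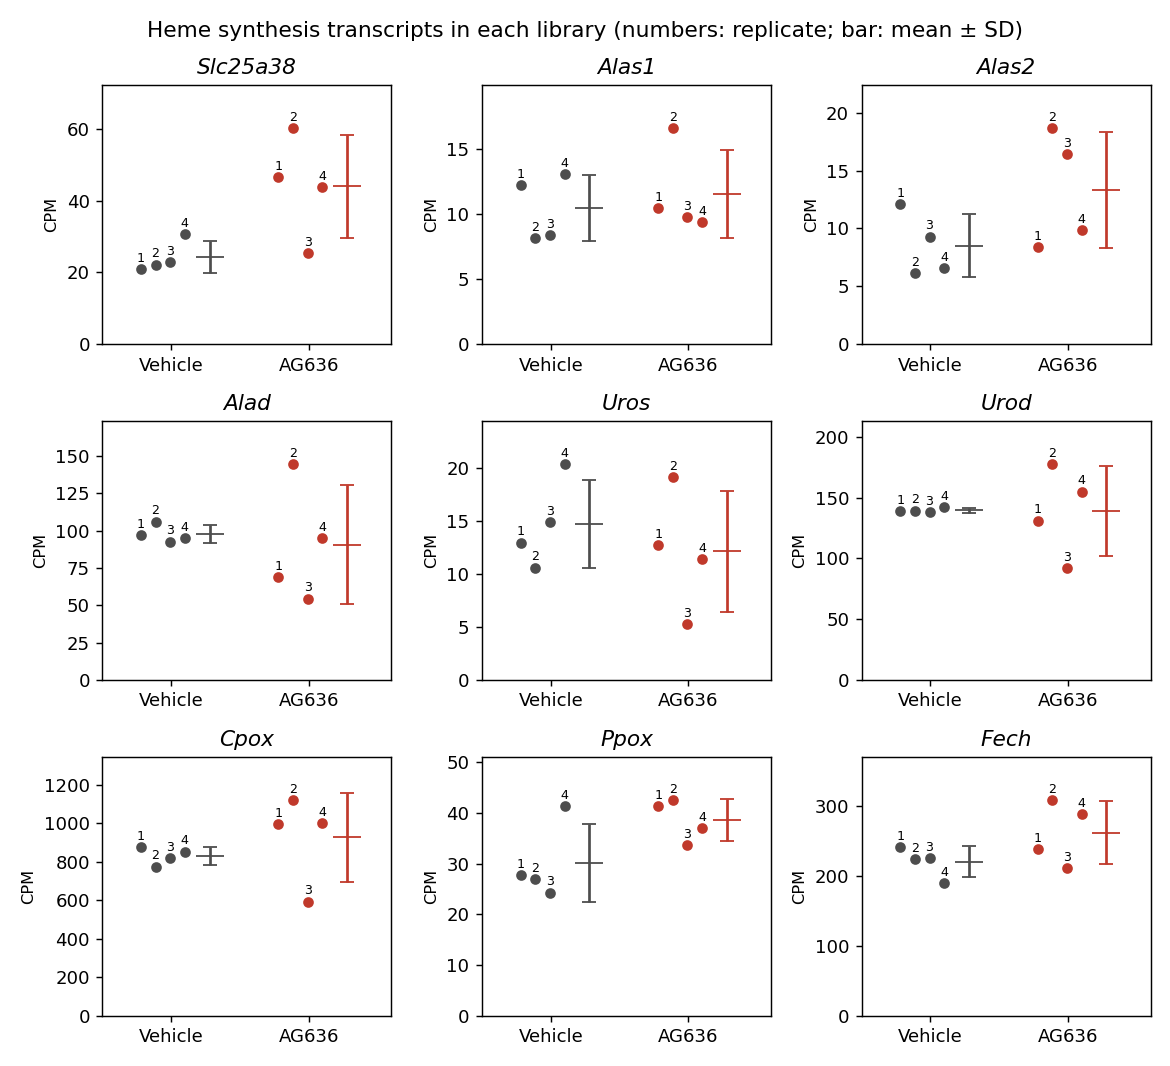
Level of each heme synthesis transcript in CPM (vertical axes from 0) in the 4 Vehicle (grey) and 4 AG636 (red) libraries, with replicate numbers beside the points and the mean with SD (n = 4) at the right of each group. AG636 sample 2 is the highest AG636 library in all 9 panels, and AG636 sample 3 is the lowest in 7 of them.

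The glycine carrier Slc25a38, which feeds the first step, gave the largest difference. It held 21.0, 22.1, 22.8 and 30.7 CPM in Vehicle samples 1 to 4, and 46.5, 60.2, 25.4 and 43.8 CPM in AG636 samples 1 to 4. AG636 samples 1, 2 and 4 lay above every Vehicle sample, whereas AG636 sample 3 lay within the Vehicle range. The mean was 24.1 ± 4.45 CPM in Vehicle and 43.96 ± 14.3 CPM in AG636 (SD, n = 4). The log2 fold change was 0.82 (SE 0.24, 95% interval 0.28 to 1.35, limma adjusted p = 0.0488), or 1.76-fold higher (1.21 to 2.56). The value lay close to the threshold. The adjusted p ranged from 0.0032 to 0.128 over 19 alternatives, and the call was lost without any 1 of the 4 Vehicle samples, without AG636 sample 1, 2 or 4, and with no filter on low counts. Without AG636 sample 3 the log2 fold change was 1.05 (adjusted p = 0.0040), and the direction was the same in all 19.

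**Figure D2:**
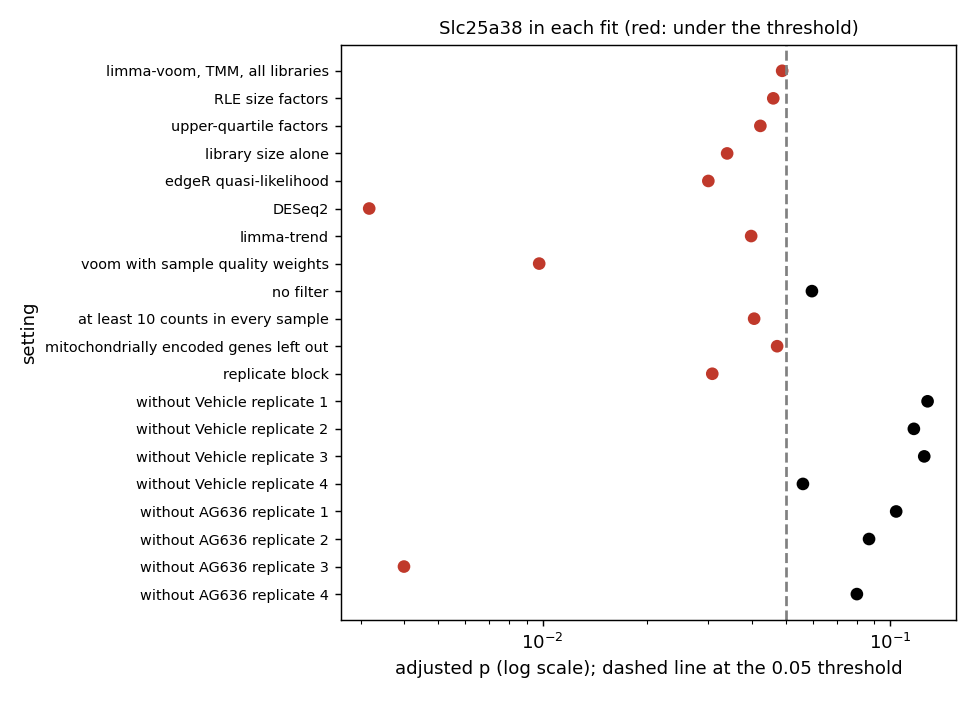
Adjusted p-value of Slc25a38 (horizontal, log scale) in the fit with all libraries and in each of the 19 alternatives (vertical), with red points under the 0.05 threshold (dashed line). The 7 fits that lost the call by leaving out 1 library have values from 0.0561 to 0.128.

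Neither gene of the first enzyme, 5-aminolevulinate synthase, passed the test. Alas1, the form of most tissues, held 12.2, 8.15, 8.36 and 13.1 CPM in Vehicle samples 1 to 4 and 10.4, 16.6, 9.73 and 9.39 CPM in AG636 samples 1 to 4. The AG636 values other than that of sample 2 lay inside the Vehicle range (log2 fold change 0.12, 95% interval −0.39 to 0.64, limma adjusted p = 0.761). Alas2, the erythroid form, held 12.1, 6.15, 9.29 and 6.54 CPM in Vehicle samples and 8.40, 18.7, 16.4 and 9.83 CPM in AG636 samples. AG636 samples 2 and 3 lay above every Vehicle sample and the other two did not (log2 fold change 0.60, SE 0.31, interval −0.07 to 1.28, adjusted p = 0.21). Alas2 had 40 to 117 counts per library, and its interval reached up to a 2.42-fold difference.

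The 2 forms catalyse the same step, so their balance was also taken within each library, where scaling has no effect. Alas2 made up 49.7, 43.0, 52.6 and 33.3% of the counts of both genes in Vehicle samples 1 to 4 and 44.6, 52.9, 62.8 and 51.1% in AG636 samples 1 to 4. Exact 95% binomial intervals, which cover counting error only, ran from 25.3 to 42.2% in Vehicle sample 4, the lowest, and from 54.9 to 70.2% in AG636 sample 3, the highest. The mean was 44.7 ± 8.56% in Vehicle and 52.9 ± 7.52% in AG636 (SD, n = 4), a difference of 8.21 percentage points with p = 0.171 by exact permutation (two-sided, smallest possible 0.0286). Both forms were thus counted at like levels in cells in which erythroid markers were abundant. The share carries the uncertainty of the Alas2 count, whose last 311 exon bases are also exon of Apex2.

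The enzymes of the cytosol had estimates below 0, and none passed the test. Alad, which joins 2 molecules of aminolevulinate, held 92.5 to 106 CPM in Vehicle and 68.6, 145, 54.4 and 94.97 CPM in AG636 samples 1 to 4 (log2 fold change −0.20, interval −0.72 to 0.32, limma adjusted p = 0.607). Its AG636 values lay on both sides of the narrow Vehicle range. Uros, which closes the ring, held 13.0, 10.6, 14.9 and 20.4 CPM in Vehicle and 12.8, 19.1, 5.27 and 11.4 CPM in AG636 (−0.37, interval −1.10 to 0.37, adjusted p = 0.494). Only AG636 sample 3 lay below the Vehicle range of this gene. Urod, which trims the side chains of the ring, held 138 to 142 CPM in the 4 Vehicle libraries and 131, 178, 91.8 and 155 CPM in AG636 (−0.05, interval −0.42 to 0.32, adjusted p = 0.876). The group means of Urod were almost equal, 140 ± 1.76 and 139 ± 36.8 CPM (SD, n = 4), and its direction turned with library size alone as scaling (0.022).

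The last enzymes, which act in the mitochondrion, had estimates above 0, and again none passed. Cpox held 877, 773, 817 and 852 CPM in Vehicle samples 1 to 4 and 993, 1121, 592 and 998 CPM in AG636 samples 1 to 4 (log2 fold change 0.12, interval −0.25 to 0.49, limma adjusted p = 0.674). AG636 samples 1, 2 and 4 lay above every Vehicle library and sample 3 below every one, and without sample 3 Cpox passed the threshold (0.32, adjusted p = 0.0358). Ppox held 27.7, 26.9, 24.3 and 41.4 CPM in Vehicle and 41.4, 42.6, 33.7 and 37.0 CPM in AG636 (0.39, interval 0.03 to 0.74, adjusted p = 0.129). All AG636 values of Ppox lay above Vehicle samples 1 to 3, and without Vehicle sample 4 it passed (0.57, adjusted p = 0.0272). Fech, which completes heme, held 241, 224, 225 and 189 CPM in Vehicle and 238, 308, 210 and 288 CPM in AG636 (0.24, interval −0.04 to 0.52, adjusted p = 0.235). AG636 samples 2 and 4 lay above the Vehicle range of Fech.

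**Figure D3:**
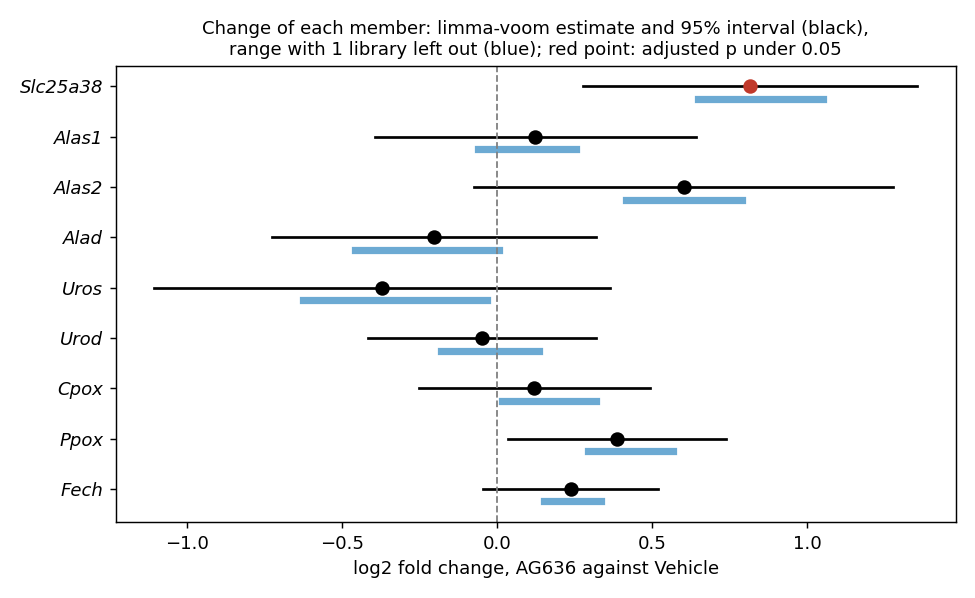
Log2 fold change of AG636 against Vehicle for each member (horizontal), with the limma-voom estimate and its 95% interval in black, and in blue the range of the estimate with 1 library left out at a time. The red point (Slc25a38, 0.82) has an adjusted p under 0.05, and the intervals of all other members except Ppox include 0.

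The members varied among AG636 libraries in a shared order. AG636 sample 2 was the highest AG636 library in 9 of 9 members, against 28.3% of all tested genes, and AG636 sample 3 was the lowest in 7 of 9, against 25.6%. The 2 exceptions were Alas1, lowest in AG636 sample 4, and Alas2, lowest in AG636 sample 1. The summed level of the members was 1317 to 1439 CPM in Vehicle, 1909 CPM in AG636 sample 2 and 1039 CPM in AG636 sample 3, beyond the Vehicle range on either side. On the log2 scale the SD over libraries was larger in AG636 than in Vehicle in 8 of 9 members, Ppox being the exception, with a median ratio of 1.94. The median ratio over all tested genes was 1.46, so a larger SD in AG636 was common among all genes and not particular to the members. Urod had the widest contrast, with an SD of 0.0181 in Vehicle and 0.411 in AG636. At 892 to 953 counts per Vehicle library, counting error alone would usually give a larger SD than 0.0181, so the size of this contrast is uncertain.

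**Figure D4:**
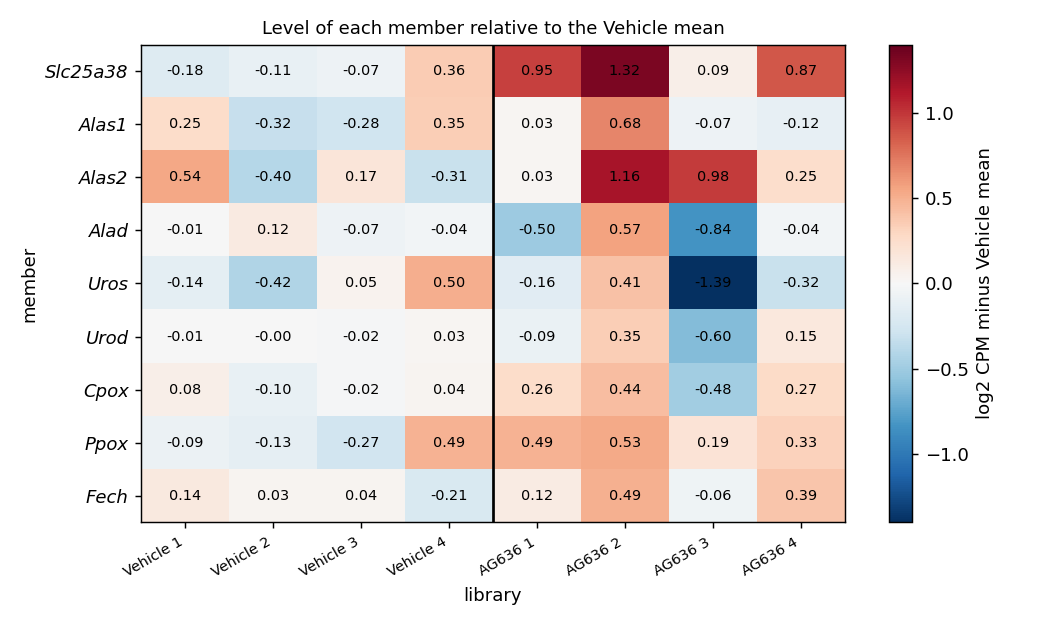
Log2 CPM of each member (rows) in each library (columns) minus its mean over the 4 Vehicle libraries, with red for higher and blue for lower values. The column of AG636 sample 2 is above 0 in all 9 members, from 0.35 to 1.32, and that of AG636 sample 3 reaches −1.39 in Uros.

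Most erythroid markers moved with this order, and markers of other lineages did so less. AG636 sample 2 was the highest AG636 library in 1 of 7 mature myeloid and 1 of 5 B cell markers tested. AG636 sample 3 was the lowest in 3 of 7 and 3 of 5. Each of these counts was 0 in the T and NK cell, megakaryocyte and mast cell lists. Of 14 erythroid markers tested, 12 were highest in AG636 sample 2 among the AG636 libraries and 12 were lowest in AG636 sample 3. The globin gene Hbb-bs ran the other way, with 2886, 1999, 3632 and 3415 CPM in AG636 samples 1 to 4. The summed level of the 14 was 5405 to 9569 CPM in Vehicle and 8299 to 10420 CPM in AG636, with 0 of the 14 at 0 in every library. Hbb-bs gave 1022 to 3708 CPM of this sum in Vehicle and 1999 to 3632 CPM in AG636. The red cell factor Klf1 held 167 to 183 CPM in Vehicle and 199, 239, 112 and 216 CPM in AG636 samples 1 to 4. Cpa3, a mast cell protease, was highest in AG636 sample 3, with 38.1, 65.6, 285 and 135 CPM in AG636 samples 1 to 4. The part of these markers in the values of the heme genes was not tested. Between groups, 2 of the 14 erythroid markers were called higher and 0 lower (median log2 fold change 0.34), against 5.47% and 8.49% of all tested genes: the globin gene Hbb-bt (17.8 to 37.4 CPM in Vehicle, 40.05 to 60.2 CPM in AG636, a log2 difference of 0.90, adjusted p = 0.0238 by limma) and the Rh-associated glycoprotein gene Rhag (105 to 126 and 122 to 208 CPM, 0.56, adjusted p = 0.0346). Hbb-bt lost its call in 4 of the 19 alternatives (the block, and without Vehicle sample 2, 3 or 4, adjusted p up to 0.0745) and Rhag in 6 (without any 1 Vehicle sample or AG636 sample 1 or 2, up to 0.1). Slc4a1, the anion exchanger of the red cell membrane, had the largest estimate of the list and just missed the threshold (9.38 to 16.4 CPM in Vehicle, 39.5, 53.95, 13.6 and 59.0 CPM in AG636 samples 1 to 4, log2 fold change 1.58, adjusted p = 0.0501). The count of erythroid markers called higher was above 2 in 11 of the 19 alternatives, reaching 4 under DESeq2 and 6 without AG636 sample 3, and was 1 without Vehicle sample 1 or AG636 sample 1 or 2 and 0 without Vehicle sample 2, 3 or 4. Globin genes are near-identical copies, so their counts are uncertain.

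A split by compartment was noticed after the values were seen. The 6 members that act in or at the mitochondrion (Slc25a38, Alas1, Alas2, Cpox, Ppox and Fech) had estimates above 0 and the 3 of the cytosol below 0. Without AG636 sample 3 the split was lost, with Alad at 0.0053, Urod at 0.13 and Uros at −0.03, and Urod was also above 0 with library size alone (0.022) and under DESeq2 (0.012). Relative to the Vehicle mean, the average log2 level of the mitochondrial members minus that of the cytosolic ones was 0.175, −0.0698, −0.06 and −0.0451 in Vehicle samples 1 to 4 and 0.565, 0.327, 1.05 and 0.399 in AG636 samples 1 to 4. The groups did not overlap in this difference, which does not depend on scaling. Without Slc25a38 the AG636 values were 0.437, 0.216, 1.05 and 0.291, and that of sample 2 then lay below the 0.236 of Vehicle sample 1. Among the 5 members with over 150 counts in every library (Cpox, Ppox and Fech against Alad and Urod), AG636 sample 2 had 0.0281, inside the Vehicle range of −0.125 to 0.112, and the other AG636 samples 0.272 to 0.604. Slc25a38, with 144 counts at its lowest, was not among these 5. No test is given for a contrast chosen in this way.

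**Figure D5:**
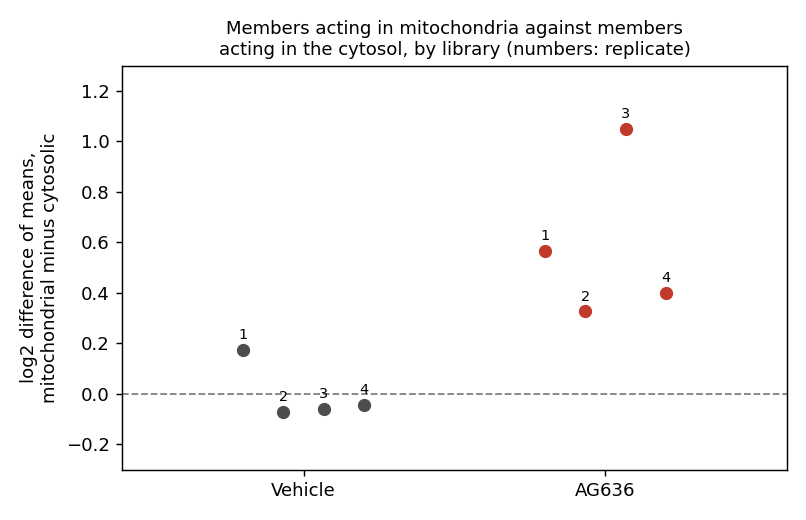
Mean log2 level of the 6 mitochondrial members minus that of the 3 cytosolic members, each relative to its Vehicle mean (vertical), in the 4 Vehicle (grey) and 4 AG636 (red) libraries, with replicate numbers beside the points. The Vehicle values lie between −0.0698 and 0.175 and the AG636 values between 0.327 and 1.05.

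The genes around the pathway were then examined by list, each count to be read against the 5.47% of all tested genes called higher and the 8.49% called lower. At these shares, 1 call among 10 to 16 genes is near the background. Of 10 tested genes that supply glycine and succinyl-CoA, the substrates of the first step, 0 were called higher and 3 lower (median log2 fold change −0.11). Shmt1 and Shmt2, the cytosolic and mitochondrial enzymes that make glycine from serine, fell from 41.0 ± 4.52 to 16.9 ± 7.61 CPM (SD, n = 4, log2 fold change −1.38, limma adjusted p = 0.0083) and from 151 ± 23.1 to 105 ± 16.5 CPM (−0.53, adjusted p = 0.0262). Ogdh, a subunit of the enzyme complex that makes succinyl-CoA, fell from 122 ± 3.51 to 95.03 ± 3.51 CPM (−0.36, adjusted p = 0.0114), with no overlap between groups. The glycine carrier of the mitochondrion was called higher in the same comparison of groups in which Shmt1 and Shmt2 were called lower. A link between these changes was not tested. Gcat, which makes glycine from threonine, was not called (−0.86, adjusted p = 0.378). Shmt2 lost its call in 5 of the 19 alternatives, namely library size alone as scaling and without Vehicle sample 3 or 4 or AG636 sample 1 or 2 (adjusted p up to 0.069), and Shmt1 and Ogdh in 0.

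Among 12 tested genes that control the first step, 0 were called higher and 1 lower (median 0.05), near the 8.49% of all tested genes, and 2 were lower under DESeq2, with sample quality weights, with the replicate block and without AG636 sample 3, where 1 was also higher. The called gene was Clpp, the protease partner of Clpx, which is known to act on 5-aminolevulinate synthase (51.9 ± 3.03 to 36.4 ± 5.56 CPM, log2 fold change −0.52, limma adjusted p = 0.0146, and 0.052 without Vehicle sample 3), while Clpx itself was not called (0.08, adjusted p = 0.651). Gata1 and Klf1, which the erythroid list also holds, the factors that drive Alas2 in red cell precursors, had values of 0.03 and 0.11 (adjusted p = 0.853 and 0.75), and the heme-sensing repressor Bach1 had 0.06 (adjusted p = 0.796). None of the 3 passed. Ppargc1b, a transcriptional coactivator, just missed the threshold (20.7 to 26 CPM in Vehicle, 13.5 to 19.8 CPM in AG636, −0.49, adjusted p = 0.0518), with no overlap between groups.

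Iron reaches Fech through several carriers, and cluster-building proteins make the iron-sulfur cluster that Fech holds. Of 14 tested iron supply genes, 0 were called higher and 1 lower (median −0.10), the iron chaperone Pcbp1 (583 ± 28 to 427 ± 53.3 CPM, log2 fold change −0.46, limma adjusted p = 0.0136), against 8.49% of all tested genes. This list had 3 genes lower without AG636 sample 2 and 2 higher without AG636 sample 3. The transferrin receptor Tfrc held 91.6 to 137 CPM in Vehicle and 42.4 to 121 CPM in AG636 (−0.53, adjusted p = 0.182), and the mitochondrial iron carrier Slc25a37 140 to 157 and 123 to 278 CPM (0.32, adjusted p = 0.285). Of 16 tested genes of iron-sulfur cluster assembly, which Fech needs for its own cluster, 0 were called higher and 1 lower (median −0.04), the chaperone Hspa9 (346 ± 45.4 to 228 ± 16.5 CPM, −0.60, adjusted p = 0.0053). The transporter Abcb10 in the same list was not called (0.16, adjusted p = 0.175).

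The fate of heme was read from the remaining lists. Of 10 tested genes of heme breakdown and transport, 0 were called higher and 1 lower (median −0.07), the heme exporter Flvcr1 (17.9 ± 1.80 to 12.3 ± 1.85 CPM, log2 fold change −0.54, limma adjusted p = 0.0376), against 8.49% of all tested genes. Its call was kept in 10 of 19 alternatives and lost with library size alone, with no filter, with the replicate block and without Vehicle sample 1, 2 or 3 or AG636 sample 1, 2 or 4 (adjusted p up to 0.102). In 8 of the 19 alternatives 1 gene of this list was called higher. Tspo, a mitochondrial outer membrane protein that binds porphyrins, had groups that did not overlap (86.4 to 97.5 CPM in Vehicle, 106 to 117 CPM in AG636, log2 fold change 0.26, adjusted p = 0.054). Hmox1, the inducible heme oxygenase, was too low to test, at 0 to 1 CPM in the 8 libraries. Of 13 tested heme users, 0 were called higher and 1 lower (median −0.18), Sdhd, a heme-binding subunit of succinate dehydrogenase (83.1 ± 17.5 to 39.2 ± 6.97 CPM, −1.08, adjusted p = 0.0047). Cox10 and Cox15, which turn heme into the heme A of cytochrome oxidase, had values of −0.08 and 0.18 (adjusted p = 0.661 and 0.615) and did not pass.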

How the data were processed

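RNA was measured in 8 samples, 4 of each group by their titles. The table deposited by the authors holds unnormalized read counts, 1 row for each Ensembl gene. Low-quality reads had been dropped and primer and poly-A bases trimmed (cutadapt), and the rest were mapped to mm10 (GRCm38) with HISAT2 and counted with the Subread package. Settings for strand, multimapping and overlapping genes are not given in the sources used here. Libraries held 6120030 to 7162036 counts, and 3 counts, the limit that a count of 0 allows, correspond to 0.434 to 0.479 CPM. Symbols came from a name table, and 3 listed erythroid symbols (Hbb-b1, Hbb-b2 and Ahsp) had no match there and were not analysed.

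Genes were filtered with filterByExpr (minimum count 10) and scaled by TMM. The groups were compared in 1 two-sided limma-voom fit with group as the only term, in R 4.3.3 with limma 3.58.1 and edgeR 4.0.16. Benjamini-Hochberg adjustment ran over the 10911 tested genes, and the threshold was 0.05. limma is the tool that the methods of the study name. Log2 CPM used a prior count of 2. The fit was tested on simulated data. Alternatives were other scalings and filters, sample quality weights, limma-trend, DESeq2 (1.42.0), the quasi-likelihood test of edgeR, a block for the replicate number, omission of mitochondrially encoded genes and omission of each sample in turn. Replicates were compared by chi-square, and no pair agreed within sampling noise.

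Members and lists were chosen with earlier results of these data known. All 9 members are named. Of the wider lists, genes past the threshold could be named, or the 3 with the smallest p-values where none or over 4 of a list passed, and Slc4a1, Tspo, Ppargc1b, Pf4, Gcat, Clpx, Gata1, Klf1, Bach1, Tfrc, Slc25a37, Abcb10, Hmox1, Cox10, Cox15, Cpa3, Car1, Mpo and Hba-a1 were named beside them for their known roles, after their values were seen. Hbb-bs was named for its opposite order among AG636 samples, also after its values were seen. For Alas1 and Alas2, the 3 most alike genes among those averaging 3 or more in log2 CPM were also to be named, of which 1 is not reported here. Protein sequences were not used here.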

Additional observations from a re-analysis of the deposited data

Results flagged for a closer look

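Each group of 4 libraries was searched for 1 sample whose gap to the others exceeded Dixon's critical ratio at 95%, in 44 combinations of a group with a member, a list sum or the Alas2 share. In 4 of them 1 sample stood out, where chance alone gives about 2.2. Alas1 in AG636 sample 2 lay at 16.6 CPM, against 9.39 to 10.4 CPM in the other AG636 samples, and without that sample the log2 fold change of Alas1 was −0.061 in place of 0.12. The summed level of the glycine and succinyl-CoA supply genes in the same library was 653 CPM, against 717 to 728 CPM. In Vehicle sample 4 the heme breakdown and transport genes summed to 1650 CPM, against 1517 to 1537 CPM, and the T and NK cell markers to 2.43 CPM, against 8.15 to 9.18 CPM.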

How the results depend on the processing

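The count of members called higher was 1 in 10 of the 19 alternatives, 2 with sample quality weights (Slc25a38 and Ppox), 0 with no filter, and 0 to 2 with single samples left out (Ppox alone without Vehicle sample 4, Slc25a38 and Cpox without AG636 sample 3), while the count called lower was 0 throughout. The number of all genes called ranged from 688 to 1706 with single samples left out, and was lowest without Vehicle sample 3 (without Vehicle sample 1 it was 798, without Vehicle sample 2 it was 918 and without Vehicle sample 4 it was 1010). It was 1202 with no filter and 1964 under DESeq2. The share of calls that were lower was 60.8% under TMM, 38.3% with library size alone and 53.1% with upper-quartile factors. The log2 fold change of Urod reversed from −0.05 to 0.022 with library size alone and 0.012 under DESeq2, and ranged from −0.18 to 0.13 with single samples left out. Those of Alas1 (−0.061 to 0.26) and Alad (−0.46 to 0.0053) also crossed 0 in that range, and the other 6 members kept their direction in all 19 alternatives. The replicate numbers did not pair the samples: the correlations of same-numbered samples were −0.14, 0.014, 0.203 and 0.135, and not every sample correlated best with its own number. With the number as a block 1446 genes were called, members called higher stayed at 1 (Slc25a38, 0.85, limma adjusted p = 0.0308), and no member call changed, while the calls of Flvcr1 and Hbb-bt were lost. The difference in the Alas2 share ranged from 4.43 to 10.96 percentage points with single samples left out, and as a log2 ratio it was 0.484 (exact permutation p = 0.171). Alas1, Alas2 and Uros had the fewest counts, 33 to 134 per library. The cause of these changes was not tested.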

Other observations

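Among 8505 other genes averaging 3 or more in log2 CPM, those whose log2 CPM ran most like Alas1 over the 8 libraries were Atg12 (Pearson r = 0.956), Ifnar1 (0.919) and Tarbp1 (0.916), and among those most like Alas2 were Sp3 (0.964) and Cytip (0.953), none of which was called between groups (limma adjusted p = 0.143 to 0.961). These are the highest of many values over few libraries and are given as a description.

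Markers of other blood lineages were low or variable, apart from the mast cell and basophil gene Ms4a2. The 12 mature myeloid markers summed to 96.4 to 150 CPM in Vehicle and 52.1 to 242 CPM in AG636, and of 7 tested 0 were called. The 6 B cell markers summed to 5.38 to 13.4 and 10.7 to 22.6 CPM, and of 5 tested 1 was called higher, Cd79a (0.291 to 1.06 CPM in Vehicle, 1.6 to 3.18 CPM in AG636, limma adjusted p = 0.0266), a call lost with no filter and without Vehicle sample 1, 2 or 3 (adjusted p up to 0.0921). The 7 T and NK cell markers summed to 2.43 to 9.18 and 4.95 to 20.1 CPM, with 1 tested and 0 called. The 5 megakaryocyte markers summed to 12.02 to 18.1 and 13.1 to 61.0 CPM, with Gp1bb at 0 in every library, and of 2 tested 0 were called. Of these, Pf4 held 0.291 to 5.33 CPM in Vehicle and 23.95, 2.71, 23.6 and 13.7 CPM in AG636 samples 1 to 4 (log2 fold change 2.89, limma adjusted p = 0.0943), and 1 gene of the list was called higher in 7 of the 19 alternatives. The 5 mast cell and basophil markers summed to 818 to 1032 and 612 to 1386 CPM, and of 3 tested 0 were called. Most of this was Ms4a2, at 781 to 930 CPM in Vehicle and 540 to 1074 CPM in AG636.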
